A study of Homo sapiens with 4 samples.

Results

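The genes of cytochrome P450 enzymes, UDP-glucuronosyltransferases (UGTs) and sulfotransferases (SULTs) were followed on 4 microarrays, 1 for each of 4 groups: HCT116 cells and A549 cells, each transfected with the microRNA miR-891b or with the negative control NC1. HCT116 is a human colorectal cancer line and A549 a human lung cancer line. Both were transfected with the lipid reagent Dharmafect1, and 100 ng of total RNA was labelled with Cy3 for an Agilent 1-colour array. The dose, the time after transfection and the number of cultures behind each RNA are not given in the sources used here. Members were every gene name on the array that starts with CYP, UGT1, UGT2, UGT3, UGT8 or SULT followed by its number, except CYP51A1, the lanosterol demethylase of cholesterol synthesis. They were 87 of the 43317 gene names on the array, measured by 120 probes. By function they fell into 19 P450s of drug and xenobiotic metabolism, 14 fatty acid P450s, 8 vitamin D and retinoid P450s, 11 steroid, cholesterol and bile acid P450s, CYP20A1 (of uncertain function), 10 antisense RNAs or pseudogenes, 13 UGTs and 11 SULTs.

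P450s are haem proteins of the endoplasmic reticulum and mitochondria that insert oxygen into drugs, fatty acids, steroids and vitamins. UGTs then attach glucuronic acid, and SULTs attach sulfate, which makes lipophilic molecules soluble enough for export in bile or urine. Liver and intestine carry most of these enzymes, and ligand-activated receptors such as AHR, VDR and the PXR receptor are known to control many of the genes. A microRNA pairs through its seed, bases 2 to 8, with sites in messenger RNAs and lowers their stability or translation. The sequence is shown because every comparison with NC1 turns on it, with the seed in capitals (RefSeq, GRCh38.p14).

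hsa-miR-891b: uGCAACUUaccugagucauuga

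A complete seed match, AAGTTGC on the sense strand, was in 0 of the 120 member probes and in 0.393% of the 58201 gene probes. The shorter match AGTTGC, which any complete match contains, was in 2 member probes, that of SULT2B1 among them, or 1.67% against 1.18% of gene probes. A probe covers 60 bases of a transcript, so these counts say nothing of the rest of it.

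Levels are log2 processed signals relative to the array's 75th percentile over gene probes, so 0 is that percentile. Values are given for NC1 and then miR-891b in HCT116, and then for the same pair in A549. A gene counted as measured in a line if, on each of its arrays, the probe carried the scanner software's mark for a signal well above background. Of the gene probes, 45.97% and 44.7% were well above background in HCT116 and 50.1% and 50.3% in A549, and none was saturated. With 1 array per group the differences between groups have no replicate check, so calls rest on size alone, with 2-fold as the threshold. Among probes printed many times on an array, the spots' log2 differences had a median SD of 0.061 in HCT116 and 0.071 in A549, which covers error within an array only. Both arrays of a line shared a slide and a scan, so line and slide cannot be told apart. On the HCT116 miR-891b array 10.8% of gene probes lay in areas of stray signal, where at least 10% of the nearby spots shone here and stayed dark elsewhere, against at most 2.28% on each other array. There 8 of the probes that stand for members were affected, among them those of CYP1A2, CYP2R1, CYP3A5, CYP3A7 and CYP4F2. The line markers went with the labels. With NC1, AKR1B10 and ALDH3A1 were 12.17 and 7.89 higher on the log2 scale in A549. For CLDN7 and EPCAM, markers of HCT116, A549 minus HCT116 was -6.75 and -4.92. AKR1B10 was not stable in HCT116, where it was 4.47 higher with miR-891b (-2.29 and 2.18). On the miR-891b arrays it was 7.51 higher in A549. Tissue markers went with the labels only in part. Of the lung markers, SFTPA1 and SFTPB were on no array, and SFTPC, SCGB1A1 and NAPSA were above background on all 4. NKX2-1 was above background in HCT116 but not in A549. The colon markers VIL1, CDH17 and LGALS4 were above background in A549 but not in HCT116, and GPA33 was on no array. CDX1, CDX2 and KRT20 were above background on all 4 arrays, with CDX2 and KRT20 lower in A549 (-5.23 and -1.83). In such bulk RNA, fewer cells that express a gene and less RNA per cell cannot be told apart.

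Detection was uneven across the families. Of the 87 genes 35 and 38 were above background in HCT116, and 43 on each A549 array. The number above background on all 4 arrays was 27 (31.0%, against 41.7% of all genes), and 33 were on no array (37.9%, against 41.6%). UGTs split by line, with 1 and 2 of 13 above background in HCT116 and 7 and 9 in A549. Of the 11 steroid, cholesterol and bile acid P450s, 7 were on no array, among them the bile acid enzymes CYP7A1 and CYP8B1 and aromatase, CYP19A1. Of the vitamin D and retinoid group, 7 of 8 were above background on at least 1 array, CYP26C1 on the HCT116 miR-891b array alone. In this group 12.5% were on no array (against 41.6% of all genes) and 50% on all 4 (against 41.7%). CYP3A4, the main drug-metabolizing P450 of adult liver, was on no array.

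With miR-891b the members' changes were few in HCT116 and more numerous in A549. In HCT116, 32 members were measured, of which 1 was at least 2-fold higher, CYP3A7, against 1.16% of the 19105 genes measured, and 1 was at least 2-fold lower, SULT2B1, against 0.843%. Their median change was -0.11 on the log2 scale, beside -0.041 over all measured genes. In A549, 39 members were measured and 7 were at least 2-fold higher (17.9%), against 4.01% of the 21336 genes measured. They were UGT2B15, UGT2B11, UGT2B10, UGT2B7, CYP4F29P, SULT1C2 and CYP27B1. SULT2B1 and CYP24A1 were at least 2-fold lower (5.13%, against 5.57%). The members' median was 0.21 in A549, beside -0.059 over all measured genes, and the 4 UGT2B genes made up more than any other group of those called.

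**Figure D1:**
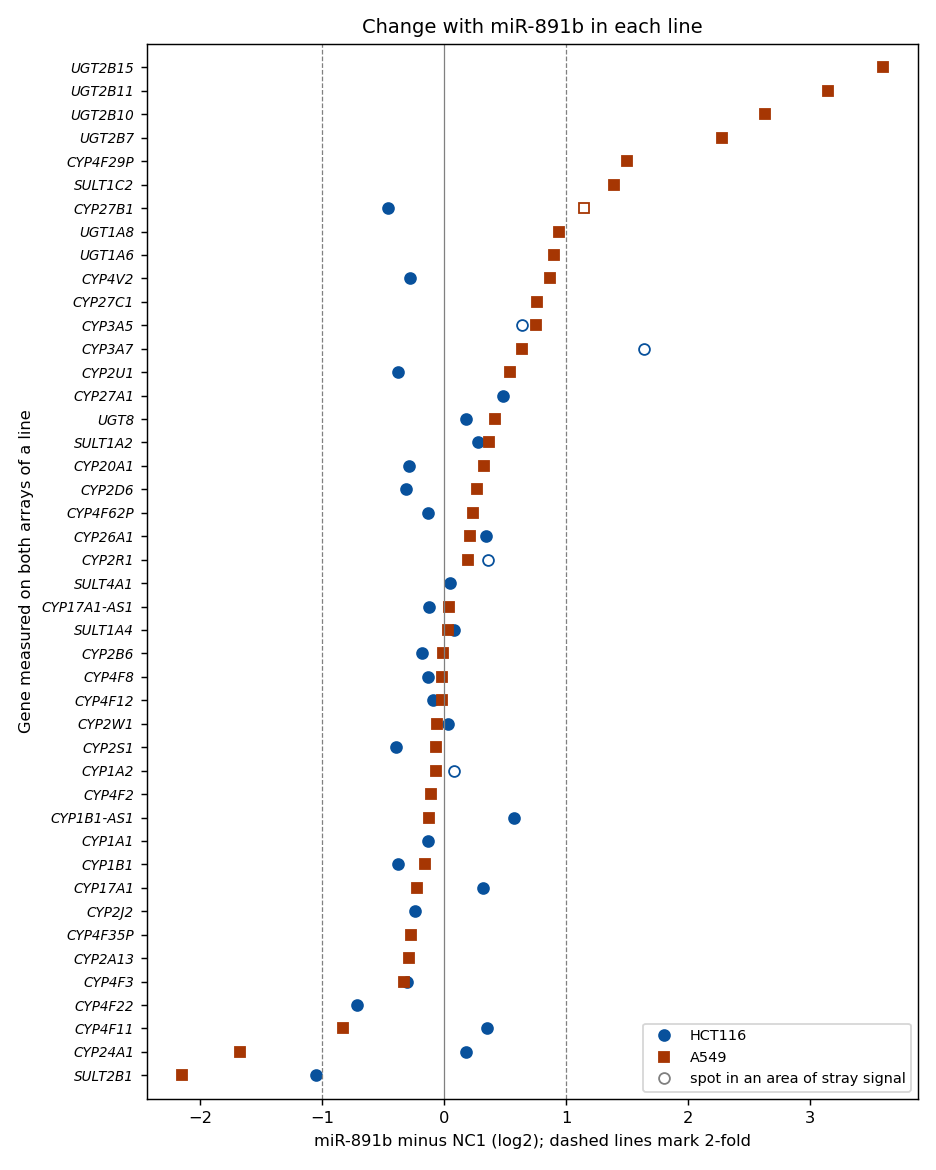
Log2 difference between the miR-891b and the NC1 array for each gene measured on both arrays of a line, in HCT116 (circles) and A549 (squares), with dashed lines at 2-fold and open symbols where the spot lay in an area of stray signal. The UGT2B genes stand at the top with A549 values from 2.28 to 3.60, SULT2B1 is lower in both lines, and most other genes lie between the dashed lines.

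An additive limma fit over all 4 arrays, with cell line and miR-891b as terms and 1 residual degree of freedom, called 0 of the 45 members fitted for miR-891b, as it called 0% of the 22712 genes fitted. The smallest adjusted p of a member was 0.793, in limma with Benjamini-Hochberg adjustment. At an unadjusted limma p under 0.05 were 7 members (15.6%) and 1214 genes in all (5.35%). The 7 were CYP4F29P, SULT2B1, UGT1A6, CYP3A7, UGT2B15, CYP3A5 and CYP27A1, and the fit also used values below background for CYP4F29P, UGT1A6, UGT2B15 and CYP27A1. The fit takes the change to be the same in both lines, so a gene that moved in 1 line only adds to its error. The difference between the lines in their response was not tested.

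The UGT2B enzymes glucuronidate steroids, bile acids and many drugs, and their genes lie side by side on chromosome 4. In A549 every UGT2B gene that could be measured was higher with miR-891b, while none was above background in HCT116. UGT2B15, which glucuronidates androgens, was at -5.53 and -4.71 in HCT116, and at -0.93 and 2.66 in A549. UGT2B11 was at -5.41 and -4.99, and at -0.61 and 2.54. UGT2B10, which conjugates amines such as nicotine, was at -3.58 and -3.66, and at 1.43 and 4.06. Each of these genes was thus under the background mark on both HCT116 arrays, above it on the A549 NC1 array, and higher still with miR-891b. UGT2B7, which handles morphine and many carboxylic acids, went the same way, at -5.57 and -5.22, and at 0.43 and 2.71. UGT2B4, a bile acid enzyme, was at -5.73 and -5.38, and at -4.88 and -0.81, and was above background on the A549 miR-891b array alone. The log2 differences in A549 were 3.60 for UGT2B15, 3.15 for UGT2B11, 2.63 for UGT2B10 and 2.28 for UGT2B7, or 12.1-fold, 8.89-fold, 6.18-fold and 4.85-fold on the linear scale. For UGT2B4 only a bound can be given, at least 8.85-fold higher, set against the dimmest signal that still carried the mark on the NC1 array. UGT2B28, UGT2A1 and UGT2A3 were on no array.

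The additive fit gave a miR-891b coefficient of 2.21 for UGT2B15 (SE 0.72) and of 1.79 for UGT2B11 (SE 0.71), each with a limma adjusted p of 0.793. These coefficients average the A549 change with a difference of 0.83 and 0.42 between signals that were below background in HCT116. With normexp background correction and quantile normalization the A549 differences of the 4 measured genes were between 1.86 and 2.52, all past 2-fold. None of the 5 spots lay in an area of stray signal in A549.

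**Figure D2:**
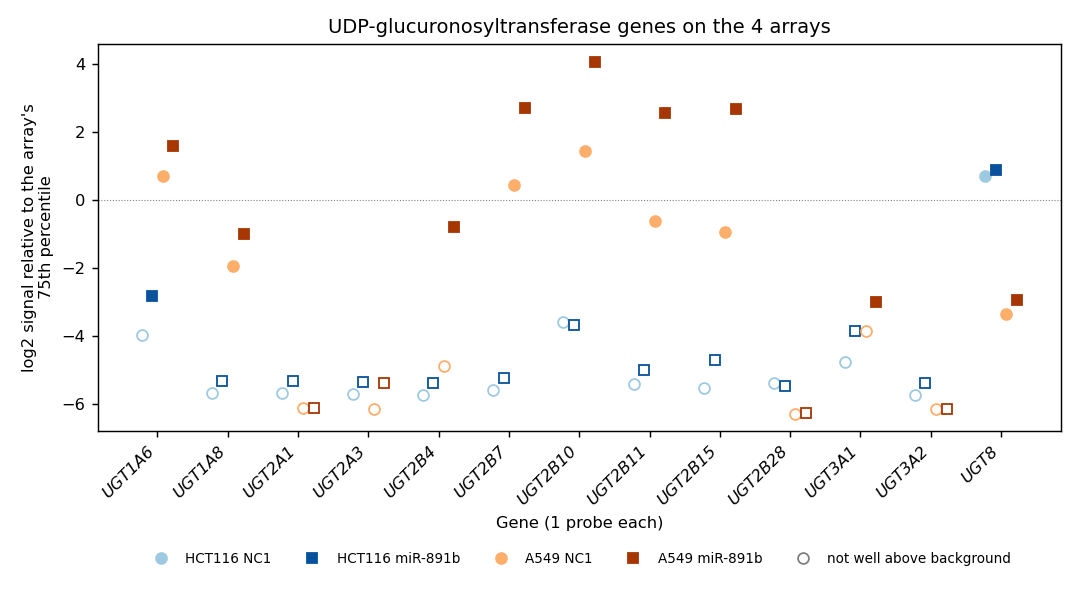
Log2 signal relative to the array's 75th percentile (y axis) for the 13 UGT genes (x axis, 1 probe each) on the 4 arrays, with open symbols where the probe was not well above background. UGT2B7, UGT2B10, UGT2B11 and UGT2B15 show 2 filled A549 symbols with miR-891b on top and open HCT116 symbols near the bottom, and UGT8 shows the opposite order of the lines.

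Since UGT2B transcripts are alike in sequence, the probes themselves decide how far these genes can be told apart. The probe of UGT2B7 listed that gene alone, whereas the probe of UGT2B10 also listed UGT2B11, that of UGT2B11 also listed UGT2B28, and that of UGT2B15 also listed UGT2B17. These values are therefore uncertain between the genes listed. Of the 87 probes that stand for members, 14 listed several genes. The sequences are shown because the A549 differences were read from them. They lie on hg19 at chr4:69978384-69978443 for UGT2B7, chr4:69696473-69696532 for UGT2B10 and chr4:70074103-70074162 for UGT2B11.

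UGT2B7 probe: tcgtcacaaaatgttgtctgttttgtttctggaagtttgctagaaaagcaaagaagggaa
UGT2B10 probe: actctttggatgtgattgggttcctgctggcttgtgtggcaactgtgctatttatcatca
UGT2B11 probe: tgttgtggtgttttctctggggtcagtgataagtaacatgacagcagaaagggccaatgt

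A second UGT2B7 probe, which lists no gene accession in common with the reference table and lies at chr4:69955255-69955314, was at -5.47, -5.09, -5.90 and -5.95 and above background on no array. It added no measurement. The mean over both UGT2B7 probes differed by 1.12 in A549, in place of 2.28.

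The neighbouring genes that could be measured stayed under 2-fold, but none of them lay between the UGT2 probes. The UGT2 probes spanned 0.942 Mb, and 39 other gene names had probes in that span or within 1 Mb of it. Of these, 5 were measured in A549 and 0 passed 2-fold, with changes from -0.08 to 0.32 and a median of -0.02. Over all genes measured in A549, 4.01% were at least 2-fold higher and 5.57% lower, so 0 of 5 does not set these neighbours apart. The nearest of the 5 to the span was YTHDC1, at -336 kb from the first UGT2 probe. Another 32 were dim on both A549 arrays, among them all the other genes inside the UGT2 span, whose changes are therefore not known. The sulfotransferase genes next to the cluster, SULT1B1 and SULT1E1, were above background on no array. In A549, ODAM was above background with miR-891b only (-6.24 and -3.83) and FDCSP with NC1 only (-2.02 and -5.81), so neither counted as measured.

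**Figure D3:**
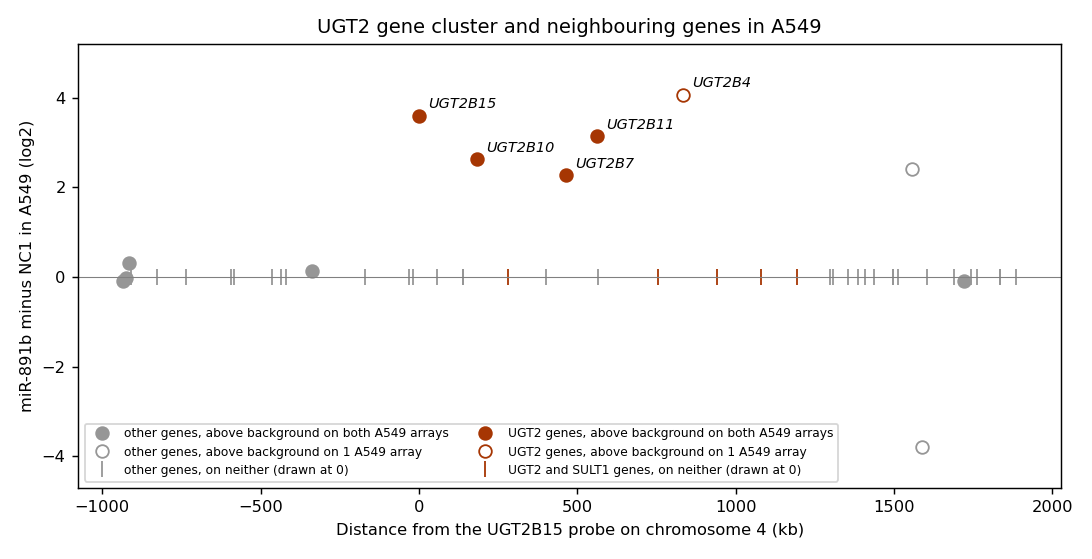
Log2 difference between miR-891b and NC1 in A549 (y axis) by distance from the UGT2B15 probe along chromosome 4 in kilobases (x axis), with filled symbols for genes above background on both A549 arrays, open circles for genes above it on 1 array and ticks at 0 for the rest. The 4 measured UGT2B genes stand between 2.28 and 3.60, and the 5 other genes measured lie between -0.08 and 0.32.

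Other liver genes moved in A549 too, in both directions. Of 6 hepatocyte markers, 6 were above background in A549, and TTR, ALB and FGB were higher by 2.33, 2.17 and 1.08 with miR-891b, while SERPINA1 and APOA1 were lower (-1.34 and -1.04). Their summed signal relative to the 75th percentile was 18.6 with NC1 and 40.6 with miR-891b in A549, and 1.54 and 1.03 in HCT116, where 2 of 6 were above background. Of 7 colon markers 6 were above background in A549, with CDH17 and KRT20 higher by 1.38 and 1.18 and summed signals of 9.98 and 10.1. Of 7 fibroblast markers 4 were, with LUM higher by 2.14 and THY1 lower (-1.04), COL1A2, COL3A1 and DCN above background on no array, and summed signals of 4.26 and 10.5. FGB (3.98 and 5.05) made up most of the hepatocyte sum on both A549 arrays, and LUM (1.03 and 3.17) most of the fibroblast sum with miR-891b. Of 6 lung markers 3 were, with NAPSA lower (-1.11) and summed signals of 0.835 and 0.804. The part of these cell types' RNA in the UGT2B differences was not tested.

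UGT1A enzymes, which conjugate bilirubin, phenols and many drugs, are made from 1 locus on chromosome 2 by joining alternative first exons to shared last exons. They were also mainly seen in A549, where the measured differences with miR-891b were under 2-fold. UGT1A6 was at -3.98 and -2.83 in HCT116, where only the miR-891b array was above background, and at 0.69 and 1.59 in A549. The A549 difference was 0.90, and in HCT116 the level was at least 1.64-fold higher with miR-891b. UGT1A8 was at -5.67 and -5.31, and at -1.93 and -0.99, a difference of 0.94 in A549. A second UGT1A6 probe differed by 0.22 in A549, at -1.47 and -1.25. Both UGT1A6 probes list UGT1A1, UGT1A4, UGT1A6 and UGT1A8, and the UGT1A8 probe lists UGT1A1, UGT1A4, UGT1A5 and UGT1A8. The names therefore stand for the locus. The second UGT1A6 probe is shown as an example of a stretch that these transcripts share, at chr2:234676521-234676580 on hg19.

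UGT1A6 second probe: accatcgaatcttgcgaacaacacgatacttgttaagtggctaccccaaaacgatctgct

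The remaining UGTs behaved otherwise. UGT8, which makes the galactolipids of myelin rather than conjugating drugs, was at 0.71 and 0.89 in HCT116 and at -3.36 and -2.94 in A549. It was the single UGT above background on all 4 arrays and was 16.8-fold lower in A549 on the NC1 arrays (-4.07), a difference that was -1.32 with normexp and quantile normalization. UGT3A1 was above background only on the A549 miR-891b array, at least 1.79-fold higher than with NC1, and UGT3A2 was on no array.

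SULT2B1, which sulfates cholesterol and pregnenolone, was the one member at least 2-fold lower with miR-891b in both lines. It was at -0.26 and -1.30 in HCT116 and at 1.43 and -0.72 in A549. All 4 spots were above background, and the miR-891b array was the lower of each pair. The differences were -1.05 in HCT116 and -2.15 in A549, that is 2.07-fold and 4.44-fold lower. The limma coefficient was -1.60 (SE 0.35, unadjusted p 0.0097, adjusted p 0.793). With normexp and quantile normalization the differences were -0.42 and -1.26, so that the HCT116 value no longer reached 2-fold. Its probe spans a splice junction at chr19:49096042-49100023 on hg19 and is shown because it holds the shorter seed match, in capitals.

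SULT2B1 probe: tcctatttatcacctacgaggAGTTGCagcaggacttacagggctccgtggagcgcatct

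SULT1C2, a phenol sulfotransferase, went opposite ways in the lines. It was at -1.95 and -3.02 in HCT116, the second value below background, and at -2.13 and -0.74 in A549. That is at least 2.09-fold lower in HCT116 and 2.62-fold higher in A549 (1.39). A second probe was above background on all 4 arrays, at -1.81 and -2.35, and at -2.86 and -0.88, and differed by -0.55 and 1.98. Both probes thus had the same signs in each line. With normexp and quantile normalization the A549 difference of the first probe was 0.40.

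The phenol sulfotransferases of the SULT1A group differed by at most 0.37 with miR-891b. SULT1A2 was at 3.92 and 4.20, and at 2.51 and 2.88, and was 2.67-fold lower in A549 with NC1. SULT1A4, whose probe also lists SULT1A1 and SULT1A3, was at 4.78 and 4.86, and at 4.01 and 4.03. SULT4A1, a brain sulfotransferase with little known activity, was at 2.15 and 2.20 in HCT116 but at -3.60 and -3.77 in A549, near or under background. SULT1C3 was above background only with miR-891b in HCT116, at -1.40 after -5.48, at least 4.44-fold higher. SULT6B1 was above background only on the A549 NC1 array, at -2.16 against -3.93, at least 3.40-fold lower with miR-891b. A second SULT6B1 probe was above background on no array. SULT2A1, the bile acid and DHEA sulfotransferase of liver, was on no array, nor were SULT1B1, SULT1C4 and SULT1E1.

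**Figure D4:**
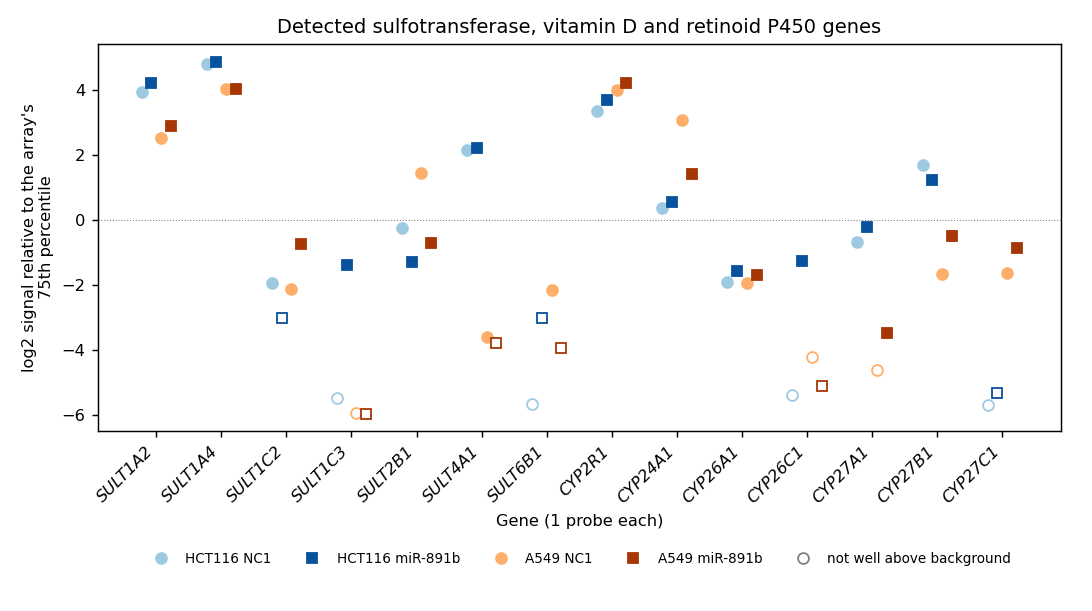
Log2 signal relative to the array's 75th percentile (y axis) for the SULT genes and the vitamin D and retinoid P450 genes above background on at least 1 array (x axis, 1 probe each), with open symbols where the probe was not well above background. SULT2B1 is lower with miR-891b in both lines, CYP24A1 is lower in A549 only (3.08 and 1.41), and CYP27B1 is lower in HCT116 and higher in A549.

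Vitamin D is activated by the 25-hydroxylase CYP2R1 and the 1-alpha-hydroxylase CYP27B1, and is inactivated by the 24-hydroxylase CYP24A1, a target of the vitamin D receptor VDR. In A549 the inactivating enzyme was lower with miR-891b and the activating hydroxylase higher. CYP24A1 was at 0.35 and 0.54 in HCT116 and at 3.08 and 1.41 in A549. A second CYP24A1 probe read -0.26 and -0.16, and 3.05 and 1.60. The A549 differences were -1.67 and -1.46 by these probes and the HCT116 differences 0.18 and 0.11, so both probes were past 2-fold in A549 and under it in HCT116. CYP27B1 was at 1.67 and 1.21, and at -1.65 and -0.50, differences of -0.46 in HCT116 and 1.15 in A549. Its A549 miR-891b spot lay in an area of stray signal, with 12.8% of its dim neighbours bright on that array alone, and the part of this in the value was not tested. With normexp and quantile normalization the CYP27B1 difference in A549 was 0.29, and that of CYP24A1 was -1.40. VDR itself was at 2.60 and 2.43, and at 0.34 and 0.55.

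CYP2R1 was at 3.34 and 3.69, and at 4.0 and 4.20, with no difference past 2-fold. CYP27A1, the mitochondrial sterol 27-hydroxylase, was at -0.69 and -0.21 in HCT116 and at -4.60 and -3.47 in A549, where the miR-891b value alone was above background, at least 1.40-fold higher. CYP27C1, a retinoid desaturase, was above background in A549 only, at -1.64 and -0.88. Among the CYP26 enzymes, which clear retinoic acid, CYP26A1 was at -1.91 and -1.57, and at -1.93 and -1.71, and CYP26B1 was on no array. CYP26C1 was above background with miR-891b in HCT116 alone, at -1.27 after -5.37, at least 4.86-fold higher, but a second probe for it was dim on all 4 arrays.

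Among the P450s of drug and xenobiotic metabolism, 9 were measured in each line and their differences with miR-891b were small in A549, from -0.29 to 0.75. In HCT116 CYP3A7, the fetal liver counterpart of CYP3A4, was 3.11-fold higher. It was at -2.97 and -1.33 in HCT116 and at 2.33 and 2.97 in A549. The HCT116 miR-891b spot lay where 18.8% of dim neighbours were bright, the value with normexp and quantile normalization was 0.34, and a second probe was not above background on either HCT116 array. The part of the stray signal in this call was not tested. CYP3A5 was at -2.59 and -1.95, and at 2.0 and 2.75. CYP1A1, CYP1A2 and CYP1B1 are the classic targets of AHR. CYP1A1 was at -1.20 and -1.33 in HCT116 and below background in A549 (-4.30 and -6.12). CYP1B1 was at -0.04 and -0.42, and at 4.22 and 4.06, and CYP1A2 was between -2.22 and -1.34 on all arrays. None of them passed 2-fold with miR-891b where it was measured. CYP2W1, a P450 known from fetal gut and colorectal tumours, was between 9.49 and 9.69 on all 4 arrays and thus nearly equal in both lines.

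In the fatty acid group, whose CYP4F members hydroxylate leukotrienes and arachidonic acid and whose CYP2J2 makes epoxides of it, 0 of 8 measured in HCT116 and 0 of 7 measured in A549 passed 2-fold. Over all genes measured, 1.16% were at least 2-fold higher and 0.843% lower in HCT116, and 4.01% and 5.57% in A549. With so few genes, counts of 0 are not set apart from these shares. CYP4F11 was the lowest of the group in A549, with values of -0.41 and -0.06 in HCT116 and of -1.18 and -2.01 in A549, a difference of -0.83. CYP4V2 was the highest, at -2.09 and -2.36, and at -2.40 and -1.53, a difference of 0.87. CYP4F2 was read in opposite directions by its probes in HCT116. One was at -3.77, below background, and -0.43, at least 8.69-fold higher with miR-891b, and its spot lay where 19.8% of dim neighbours were bright. The other was at -0.75 and -1.95, a difference of -1.20. CYP4A11 was also read in opposite directions by its probes, in A549. The probe that stands for it, which also lists CYP4A22, was above background on the A549 NC1 array only, at least 2.02-fold lower with miR-891b. A second probe was above background on the miR-891b arrays only, at -2.85 after -4.09 in HCT116 and at -3.30 after -4.06 in A549. Among the pseudogenes CYP4F29P was at -5.84 and -4.40, and at -2.90 and -1.40, 2.83-fold higher in A549. Its probe also lists CYP4F35P, whose own probe was at least 2.55-fold higher in HCT116 and differed by -0.27 in A549. With normexp and quantile normalization the CYP4F29P difference was 0.33.

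Of the steroid, cholesterol and bile acid P450s, CYP17A1 alone was above background on all 4 arrays, at -1.55 and -1.23, and at 0.04 and -0.18. CYP11A1, which opens steroid synthesis by cleaving the cholesterol side chain, was above background with NC1 only, at -3.06 in HCT116 and -3.25 in A549. CYP39A1 was above background with miR-891b in HCT116 only, at least 1.75-fold higher, and CYP21A2 with NC1 in HCT116 only. CYP20A1 was at 2.03 and 1.74, and at 2.55 and 2.88.

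More members were past 2-fold between the lines than with miR-891b in either line. On the NC1 arrays 30 members were measured in both lines, of which 9 were at least 2-fold higher in A549 (30%, against 11.1% of 19218 genes) and 5 at least 2-fold lower (16.7%, against 16.2%). Higher in A549 were CYP3A7 (5.30), CYP3A5 (4.59), CYP1B1 (4.26), CYP24A1 (2.72), CYP4F3 (2.21), SULT2B1 (1.68), CYP17A1 (1.59), CYP2S1 (1.42) and CYP4F12 (1.19). Lower were SULT4A1 (-5.75), UGT8 (-4.07), CYP27B1 (-3.33), SULT1A2 (-1.42) and CYP2D6 (-1.12). The next lowest, under 2-fold, were CYP17A1-AS1, CYP4F11 and SULT1A4 (-0.77 each). With normexp and quantile normalization CYP3A7, CYP3A5, CYP4F3 and SULT2B1 differed by 2.56, 2.19, 1.37 and 1.05, SULT4A1, UGT8 and CYP27B1 by -2.38, -1.32 and -1.67, and CYP1B1 and CYP24A1 by 3.33 and 2.08. CYP17A1 (0.68) and CYP2D6 (-0.28) were then under 2-fold. On the miR-891b arrays the differences of CYP24A1, SULT2B1 and CYP2D6 were 0.87, 0.58 and -0.54, and no longer reached 2-fold. Members above background in 1 line only gave bounds with NC1. UGT2B10 was at least 31.5-fold higher in A549, UGT1A6 at least 18.9-fold, UGT2B7 at least 15.7-fold, UGT2B11 at least 7.67-fold and UGT2B15 at least 6.11-fold. The epoxygenase CYP2J2 was at least 14.5-fold lower in A549, CYP27A1 at least 9.62-fold and CYP1A1 at least 6.76-fold. The limma fit, adjusted over all genes, called 15 of 45 members higher in A549 and 8 lower, against 15.5% and 16.4% of the 22712 genes fitted. The 4 measured UGT2B genes were among those higher, as were UGT1A6 and UGT1A8, whose probes stand for the same locus. Their coefficients were from 4.03 to 6.96. The HCT116 values of UGT2B7, UGT2B10, UGT2B11, UGT2B15 and UGT1A8 in that fit were below background on both arrays, so these genes entered it through A549 and their coefficients are not measured sizes. UGT1A6 was below background on the HCT116 NC1 array. CYP27C1 and CYP4F29P, also called higher, likewise entered the fit through A549 alone. CYP1A1, CYP2J2 and CYP4F22, called lower, entered it through HCT116 alone. For such genes the filter itself favoured a line call, so the counts of 15 and 8 do not test the members against all genes.

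**Figure D5:**
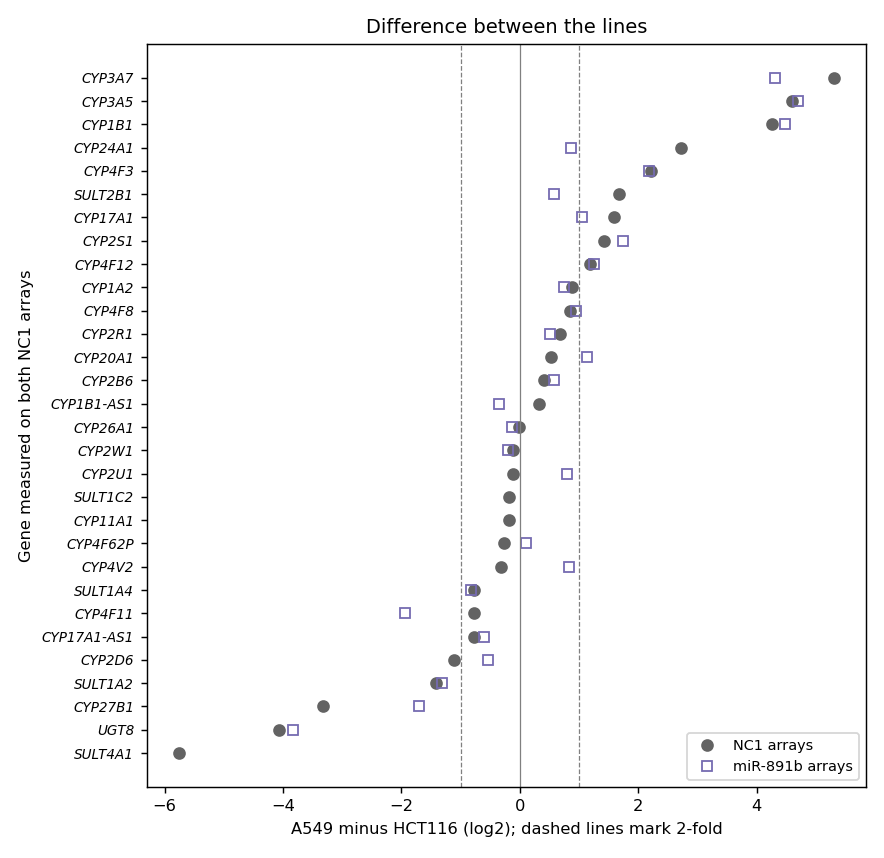
Log2 difference between A549 and HCT116 for each member measured on both NC1 arrays, with circles for the NC1 arrays, open squares for the miR-891b arrays where both were measured, and dashed lines at 2-fold. CYP3A7, CYP3A5 and CYP1B1 are the highest and SULT4A1 and UGT8 the lowest, and CYP24A1 and SULT2B1 lie above the upper dashed line with NC1 and inside it on the miR-891b arrays.

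The genes that serve these enzymes were counted in the same way. Of all genes measured, 1.16% were at least 2-fold higher with miR-891b and 0.843% lower in HCT116. In A549 these shares were 4.01% and 5.57%. In sets this small, counts of 0 are not set apart from those shares. Of 21 regulators, 14 were measured in HCT116 with 0 past 2-fold, and 17 in A549, with CEBPA and PPARA higher (1.09 and 1.16) and NR1H3, the oxysterol receptor LXR alpha, lower (-1.51). NR1I2, the PXR receptor, was on no array. Between the lines with NC1, the hepatic factors FOXA2 and FOXA1 were higher in A549 by 7.27 and 3.95, VDR, RXRB and TIPARP were lower (-2.26, -1.23 and -1.05), and the bile acid receptor NR1H4 was above background in A549 only, at -0.09 and 0.20. The P450s' electron donors included 8 genes, all measured, with CYB5B lower in A549 (-1.15) and 0 past 2-fold in HCT116. The haem genes numbered 10, with HMOX1, which degrades haem, lower in A549 (-1.26). The 9 genes that supply UDP-glucuronate and PAPS, the donors of UGTs and SULTs, had 0 past 2-fold in either line. UGDH, which makes UDP-glucuronate, was 2.92 higher in A549 with NC1, at 3.65 and 3.45 in HCT116 and 6.56 and 6.48 in A549. Among 6 hydrolases and 6 efflux pumps, 0 passed 2-fold with miR-891b. The conjugate exporter ABCC3 was 3.81 higher in A549 with NC1.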

How the data were processed

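Total RNA from 4 transfected cell samples, 1 array for each group named by the sample titles, was analysed. Per the file headers, the authors quantified the scans with Feature Extraction 11.5.1.1, which subtracts background and removes spatial trends, and probe coordinates are on hg19. Scanner files were deposited as linear intensity values. The authors' deposited table holds log2 values, which differed from those computed here by a median of at most 0.0069 on any array.

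Outlier spots were left out, log2 processed signals were averaged over a probe's spots, and each array's 75th percentile over gene probes was subtracted (Python 3.11.15). The probe of highest mean on the 4 arrays stood for a gene. Genes were called by size, at 2-fold, where well above background on both arrays compared. A bound sets the bright signal against the dim array's lowest well-above-background signal, or the dim probe's own where higher. A spot was in an area of stray signal if, among spots up to 10 rows or columns away that lacked the mark on every other array, at least 10% carried it. limma 3.58.1 (R 4.3.3) was fitted to genes above background on at least 2 arrays and tested on simulated data, with Benjamini-Hochberg adjusted p under 0.05 as the threshold. The number of arrays limits the precision. With 1 array per group, no spread between replicates was there for the p-values to measure. They rest on how far the arrays depart from the additive fit, which limma pools in part over genes.

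Some results on members and regulators are not reported here. The members and lists were chosen with earlier results of these data known. Named in full were members past 2-fold, bounds of at least 2-fold with miR-891b or 4-fold between the lines, and the 8 highest and 8 lowest line differences. Alternatives were other scalings, normexp with an offset of 50, the authors' values, means over probes, no filter, outliers kept, stray areas left out, and thresholds of 1.5-fold and 3-fold.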

Additional observations from a re-analysis of the deposited data

Results flagged for a closer look

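CYP24A1 and CYP27B1 differed between the 2 lines in their change with miR-891b, and the difference was not tested. For CYP24A1 the change in A549 minus that in HCT116 was -1.85 (changes of -1.67 and 0.18), and for CYP27B1 it was 1.61 (1.15 and -0.46). The HCT116 changes were under 2-fold. The A549 spot of CYP27B1 lay in an area of stray signal, and its change was 0.29 with normexp and quantile normalization. Second probes outside the main comparison also passed 2-fold: that of CYP24A1 differed by -1.46 in A549, that of SULT1C2 by 1.98 in A549 and that of CYP4F2 by -1.20 in HCT116. The first 2 have the sign of the probe that stands for the gene, and that of CYP4F2 has the opposite sign.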

How the results depend on the processing

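Alternatives were run for 11 changes with miR-891b and 16 line differences of single genes, of which 0 reversed: 55 of 75 values for the changes and 68 of 124 for the line differences moved by less than the spread between spots, and the others kept their sign. In HCT116, where 1 member was higher and 1 lower, normexp with quantile normalization gave 0 and 0, no filter 11 and 2, leaving out stray areas 0 and 2, and 1.5-fold 2 and 2. Means over probes gave 2 higher there, and 3-fold gave 0 lower. In A549, where 7 were higher and 2 lower, normexp gave 4 higher, no filter 13 and 7, 1.5-fold 13 higher and 3-fold 4 higher. Between the lines (9 higher, 5 lower), no filter gave 23 and 14, 1.5-fold gave 8 lower and 3-fold gave 3 lower. The members' median change was 0.35 in HCT116 with no filter, and in A549 it was 0.069 with normexp, 0.13 with means over probes and 0.011 with no filter. The filter's removal lets in genes below background, and the cause of the other shifts was not tested. The members that limma called for the cell line (23) numbered 17 with normexp and quantile normalization and 29 with no filter, and those called for miR-891b were 0 in each alternative run. The limma fit has cell line as a term, which pairs the arrays of a line. Signals near background limit what can be read of the UGT2B genes in HCT116, and the number of arrays limits the rest.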
